A study of Bos taurus with 10 samples.

Results

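Genes of 10 transcription factors that respond to growth signals or to cell stress were followed across 10 samples of bovine embryos: EGR1, KLF6, FOS, JUN, JUNB, ATF3, ATF4, DDIT3, XBP1 and MYC. All 24 probes that the array files assign to these 10 genes were taken, out of 43653 probes in all. The array holds probes for 17491 named genes. The genes were chosen with values of these data in view: EGR1, KLF6 and DDIT3 were selected on their small unadjusted p-values between the 2 senktide doses, so the difference between the doses is described here and not tested. Senktide is a peptide agonist of the neurokinin 3 receptor. Superovulated cows received vehicle (labelled DMSO, n = 2 samples), senktide at 30 nmol/min (n = 4) or senktide at 300 nmol/min (n = 4). Senktide was infused into a vein for 2 h, starting 48 h after superovulation began. All cows were inseminated at 108 and 120 h with frozen and thawed semen, and embryos were flushed from the uterus at day 7. RNA of each sample was labelled with Cy3 and hybridised to 1 array of a single-colour Agilent bovine design. The infusion went to the cow and came before insemination, so no embryo was present when the compound was given. The labels do not say how many embryos made a sample or whether samples came from separate cows, so p-values measure only how much these samples varied, and part of that may be technical. The extraction text speaks of endometrium while every tissue field names embryos.

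Immediate early genes are transcribed within minutes of a growth factor, hormone or stress signal without new protein synthesis, and their mRNAs are short-lived. FOS, JUN and JUNB encode subunits of the dimeric factor AP-1, EGR1 a zinc finger factor, KLF6 a Krüppel-like factor, and MYC a basic helix-loop-helix factor that drives growth and ribosome synthesis. The stress factors belong to linked pathways. Phosphorylation of the initiation factor eIF2 raises translation of ATF4, which activates ATF3 and DDIT3 (also called CHOP), while unfolded protein in the endoplasmic reticulum leads to splicing of XBP1 mRNA into the form that encodes the active factor. ATF4 and XBP1 are therefore controlled largely after transcription, which an mRNA array does not measure.

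Most member probes that gave signal lay toward the downstream end of their transcripts. A spot was counted as detected where the scanner software flagged its signal as well above background, and a probe was tested where this held on at least 2 of the 10 arrays. By this rule 13 of the 24 probes, from 9 genes, were tested, and both MYC probes were detected on 0 of 10 arrays. Stretches of 30 bases of 11 probes are given below from the deposited array files, 5′ to 3′, to show what was hybridised. For each of the 9 tested genes the probe that carries its values is shown, for JUN the middle one. The downstream JUN probe and the upstream EGR1 probe, which was detected on 0 arrays, are set beside them. Positions are those of the files (build HGSC Btau_3.1), and capitals mark AATAAA, the usual polyadenylation signal, or ATTTA, the core of AU-rich elements of unstable mRNAs.
ATF4, chr5:118120382-118120411, plus strand: agaaggctgaagctgtgttttAATAAAtta
JUN middle, chr3:93620163-93620192, plus strand: aaatataaataacacagacagatttgagaa
JUN downstream, chr3:93620780-93620809, plus strand: gcactctgagtttaccatttgtAATAAAgt
ATF3, chr16:68874240-68874269, minus strand: gtttctgtgaaatcctcagagtgtttagtc
FOS, chr10:88963224-88963253, plus strand: acttgaatgaaaaATTTAagcattgtttgc
DDIT3, chr5:60419506-60419535, plus strand: gcgtgtatatagattgtacATTTATTTAtt
XBP1, chr17:71585948-71585977, minus strand: ggtgctttctccATTTATTTAaaactacct
JUNB, chr7:11005099-11005128, minus strand: ATTTAttttaatttgtgtttatgtgttagt
KLF6, chr13:44759664-44759693, plus strand: ctttattaaggctcttttttcacctggctt
EGR1 downstream, chr7:49146035-49146064, plus strand: attgaatgcgctttattgcccatgggatat
EGR1 upstream, chr7:49143607-49143636, plus strand: gagttaccccagccaaaccacccggctgcc

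The motif matches in these windows are a description of the letters and not of binding or use. On the probe strand AATAAA was present in 2 of the 24 member probes, the ATF4 and downstream JUN probes above, and in 9.35% of all 43653 probes. ATTTA was present on the probe strand in 7 of the 24, against 7.45% of all probes. Counting either strand, the shares over all probes were 12.4% for AATAAA and 15.1% for ATTTA, and 9 and 11 of the 24 member probes held them. AATAAA lay on the other strand in 7 member probes and in 3.46% of all probes, where it is not a polyadenylation signal of the probed mRNA. Both motifs can overlap in runs such as ATTTATTTA, which was counted once per probe. Of all probes with AATAAA on their own strand 40.7% were tested, against 18.4% of those without it. Base composition also differed with detection, since the 13 tested probes had 28.3% to 45% G and C, and the other 11 had 40% to 55%.

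The number of arrays on which a gene was detected differed with where its probe lay. EGR1 was seen on 4 of 10 arrays by the probe nearest the end of its transcript and on 0 arrays by the probes 810 and 2428 bases upstream of it in the genome. The 2 upstream FOS probes were likewise at 0 arrays, while the probe at the end was detected on 4. KLF6 was detected on 10 and 9 arrays by its 2 downstream probes, which share 41 bases, and on 0 by the upstream probe. The same held for XBP1, with 9 arrays for each of 2 downstream probes that share 32 bases and 0 for the upstream one. DDIT3 was detected on 6 arrays downstream and on 1 upstream, and ATF4 on 10 downstream, 0 in the middle and 6 upstream. In 7 of the 8 member genes with several probes the most downstream probe was detected on more arrays than the most upstream one, and MYC was at 0 for both. JUN departed from a simple gradient, since its middle probe was detected on 9 arrays and its most downstream one on 4. Over the array, 4470 transcripts had probes at 2 or more positions with any detection, and the downstream probe was detected on more arrays in 77.2% of them, the upstream one in 16.2%. JUNB and ATF3 had 1 probe each.

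**Figure D1:**
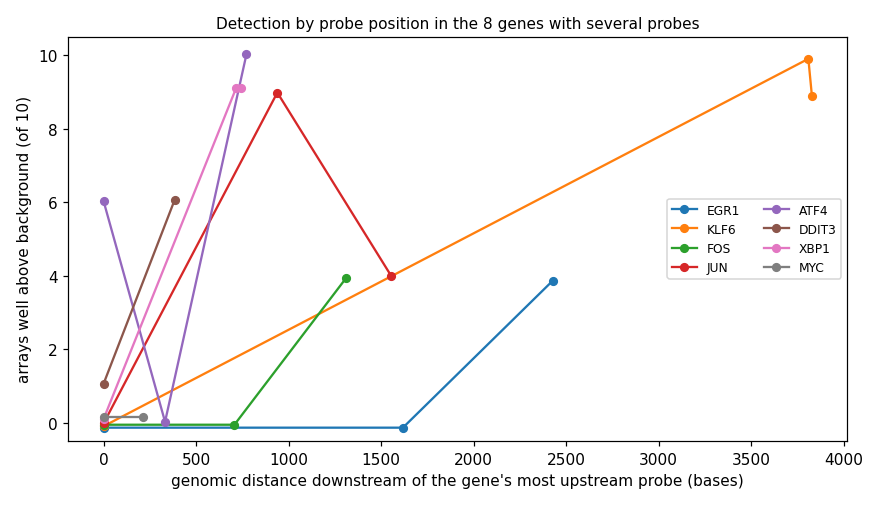
Number of arrays, of 10, on which each probe was well above background (vertical axis) against its genomic distance in bases from the most upstream probe of the same gene (horizontal axis), for the 8 genes with 2 or 3 probes. Points of a gene are joined and lines are offset slightly so that they can be told apart. EGR1 and FOS reached 4 arrays at their last probe alone, and MYC stayed at 0.

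Detection also differed between slides. Slides 1 and 2 each held 1 vehicle array, 1 array at 30 nmol/min and 1 at 300 nmol/min, and slide 3 held replicates 3 and 4 of both doses and no vehicle. On slide 3 between 18.3% and 19.6% of probe spots were well above background, against 7.17% to 13.2% on slides 1 and 2. By group the share averaged 8.31 ± 1.60% for vehicle (SD, n = 2), 14.5 ± 5.22% at 30 nmol/min and 15.6 ± 4.49% at 300 nmol/min (SD, n = 4 each). Scaled levels below are log2 of the processed signal minus the 75th percentile of the 2491 probes detected on all arrays, so that 0 is a bright probe of that array. On this scale the weakest signal counted as detected lay between −3.71 and −2.56 on slides 1 and 2 and between −5.44 and −5.27 on slide 3. All 9 tested genes were detected on all 4 arrays of slide 3. Spots of EGR1, FOS and JUNB were detected on no array of slides 1 and 2, so neither vehicle array measured them.

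**Figure D2:**
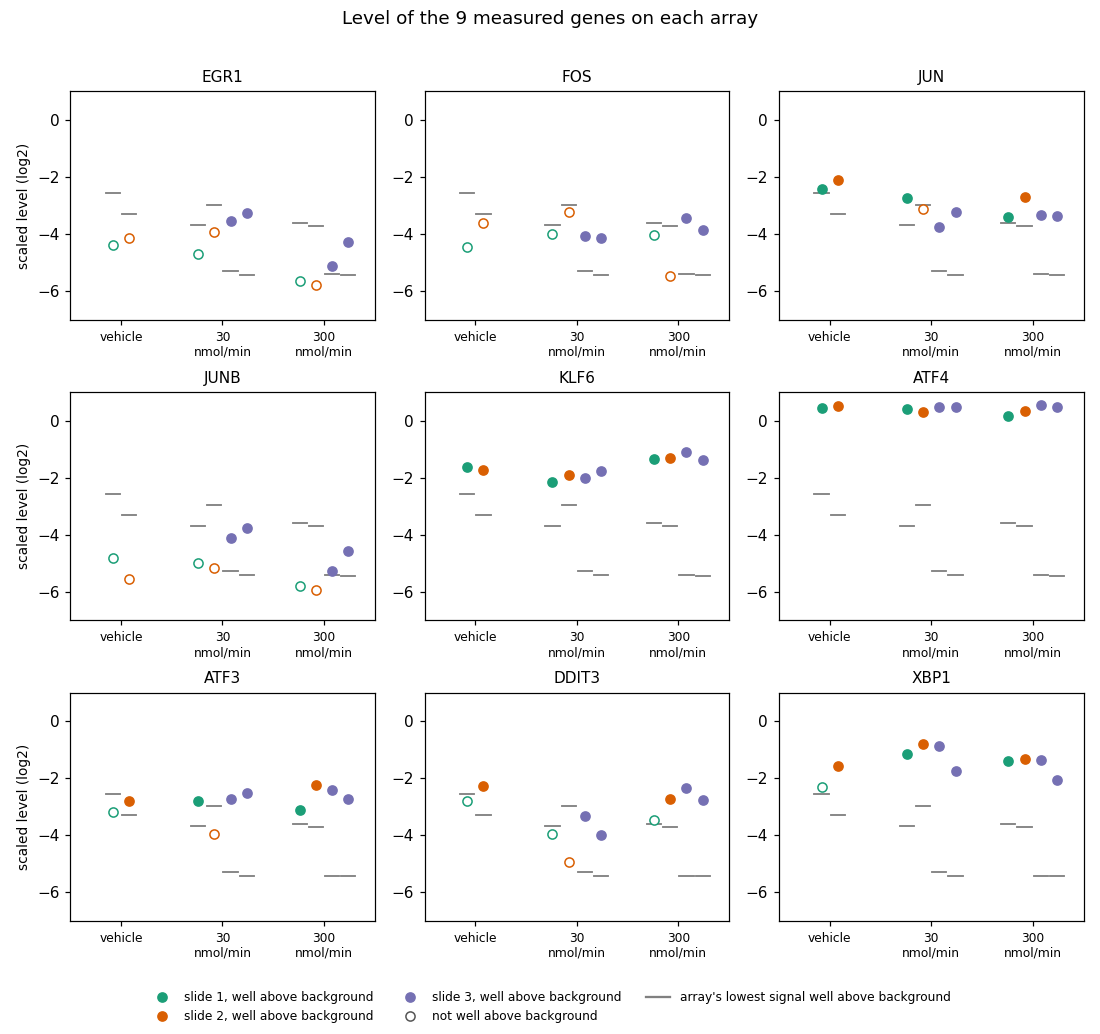
Scaled level (log2, vertical axis) of the tested probe of each of 9 genes on every array, grouped as vehicle (n = 2), 30 nmol/min and 300 nmol/min (n = 4 each) and coloured by slide. Filled points were well above background, open points were not, and each grey bar is the weakest signal detected on that array. KLF6 and ATF4 are filled on all 10 arrays, while EGR1, FOS and JUNB are filled on slide 3 alone.

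EGR1, the zinc finger factor, had processed signals of 3.79 and 7.10 with vehicle, 6.94, 6.51, 34.1 and 42.3 at 30 nmol/min, then 3.55, 2.51, 12.1 and 24.6 at 300 nmol/min. The last 2 values of each dose are the slide 3 arrays and are the ones above background. These signals are not scaled between arrays. On slide 3 both arrays at 300 nmol/min lay below both at 30 nmol/min, with scaled levels of −5.13 and −4.29 against −3.55 and −3.26. The difference there was −1.30 on the log2 scale, 2.46-fold lower at 300 nmol/min, and over all arrays it was −1.35, with 4 of 8 values not above background. With normexp background correction, which adds an offset of 50 to every spot, followed by quantile scaling, the difference over all arrays was −0.12. No fold against vehicle can be given, since vehicle holds only a bound and that bound was not exceeded.

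JUNB, an AP-1 subunit that can hold back JUN activity, showed the same order on slide 3. Its signals were 2.86 and 2.62 with vehicle, 5.67, 2.79, 23.0 and 29.7 at 30 nmol/min, then 3.23, 2.24, 10.9 and 20.4 at 300 nmol/min. Scaled levels on slide 3 were −5.27 and −4.56 at 300 nmol/min, against −4.12 and −3.77 at 30 nmol/min, a difference of −0.97. All 4 lay below the weakest detectable level of every array on slides 1 and 2. The lowest, −5.27, was also close to the weakest signal detected on its own array, −5.41. With normexp correction and quantile scaling the dose difference over all arrays was −0.11.

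FOS, which binds DNA as a dimer with JUN proteins, did not share that order. Its signals were 3.63 and 10.2 with vehicle, 11.3, 10.7, 24.2 and 22.9 at 30 nmol/min, then 10.9, 3.09, 39.2 and 33.6 at 300 nmol/min. On slide 3 both arrays at 300 nmol/min, with −3.43 and −3.84, lay above both at 30 nmol/min, with −4.05 and −4.15. The difference was 0.46 on slide 3 and −0.35 over all 8 senktide arrays, where the 4 arrays of slides 1 and 2 held values not above background.

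JUN, the main partner of FOS in AP-1, was by its middle probe lower on every senktide array than on both vehicle arrays. The scaled levels were −2.43 and −2.09 with vehicle, −2.74, −3.11, −3.74 and −3.22 at 30 nmol/min, then −3.40, −2.71, −3.32 and −3.36 at 300 nmol/min. Only the second array at 30 nmol/min was not above background. The weakest signal detected on the first vehicle array was −2.56, close to its JUN level. Every senktide level lay below that limit, so this array could not have detected levels as low as those with senktide. The mean was −3.20 ± 0.33 at 300 nmol/min (SD, n = 4) and −2.26 ± 0.24 with vehicle (SD, n = 2), a difference of −0.94 ± 0.31 (limma SE) with adjusted p = 0.271 over all tested probes. The mean at 30 nmol/min was −3.20 ± 0.41 (SD, n = 4), a difference of −0.94 ± 0.31 from vehicle with adjusted p = 0.329. Neither passed the threshold of 0.05. The sign depended on the scale: with all probes, detected or not, behind the 75th percentile the differences were 0.23 at 300 nmol/min and 0.11 at 30 nmol/min, because that scale moved the median of all tested probes to 1.06 and 0.95 against −0.11 and −0.11 here. Relative to the median of all tested probes, JUN was lower than in vehicle in the 5 settings compared (this scale, quantile scaling, normexp with quantile scaling, slide as a block, and slides 1 and 2 alone), with differences of −0.97 to −0.41 at 300 nmol/min and −1.04 to −0.41 at 30 nmol/min. Within slides 1 and 2, which hold both groups, the differences from vehicle were −0.97 and −0.62 at 300 nmol/min, with −0.31 and −1.02 at 30 nmol/min. The downstream JUN probe ran the other way. It was detected on slide 3 alone, so vehicle holds only a bound and no fold is given, but its fitted differences were 0.63 ± 0.36 (adjusted p = 0.435) at 300 nmol/min and 0.35 ± 0.36 (adjusted p = 0.698) at 30 nmol/min. With the 2 JUN probes averaged the differences were −0.16 at 300 nmol/min and −0.30 at 30 nmol/min.

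KLF6 was the one immediate early member detected on every array. Its scaled levels were −1.63 and −1.74 with vehicle, −2.17, −1.92, −2.0 and −1.77 at 30 nmol/min, then −1.33, −1.31, −1.11 and −1.39 at 300 nmol/min. The 3 groups did not overlap, with 300 nmol/min highest, vehicle between and 30 nmol/min lowest. The mean was −1.29 ± 0.12 at 300 nmol/min (SD, n = 4) and −1.69 ± 0.08 with vehicle (SD, n = 2), a difference of 0.40 ± 0.19 (limma SE), adjusted p = 0.375. For 30 nmol/min the mean was −1.96 ± 0.17 (SD, n = 4), a difference of −0.28 ± 0.19 from vehicle, adjusted p = 0.555, which was 0.78 with the 75th percentile of all probes as the scale. The overlapping probe placed 30 nmol/min on the other side of vehicle, with differences of 0.95 ± 0.29 (adjusted p = 0.254) at 300 nmol/min and 0.28 ± 0.29 (adjusted p = 0.690) at 30 nmol/min, but it was detected on only 1 of 2 vehicle arrays. Between the doses both probes gave 300 nmol/min higher, by 0.68 and 0.66, that is 1.60-fold and 1.58-fold. Within slides 1, 2 and 3 the difference of the first probe was 0.83, 0.61 and 0.63, and all 8 arrays were above background. With normexp correction and quantile scaling the dose difference over all arrays was 0.32. Relative to all tested probes the difference from vehicle was 0.51 at 300 nmol/min, and 0.07 with normexp and quantile scaling.

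MYC stayed below the detection rule at both probes, with signals between 2.86 and 7.77 over all arrays. The weakest signal detected on any array was 9.47. Nothing more can be said of its level.

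ATF4, the translationally controlled hub of the integrated stress response, was the steadiest member. Its scaled levels were 0.45 and 0.52 with vehicle, 0.40, 0.32, 0.47 and 0.47 at 30 nmol/min, then 0.17, 0.33, 0.54 and 0.48 at 300 nmol/min. The groups overlapped. The SD over the 10 arrays was 0.11, and only 3.25% of the 2491 probes detected on all arrays had a lower one, while the median SD was 0.24. KLF6 lay on the other side of that median, with an SD of 0.34 and 82.6% of probes below it. The difference of ATF4 from vehicle was −0.10 ± 0.18 (limma SE, adjusted p = 0.808) at 300 nmol/min and −0.07 ± 0.18 (adjusted p = 0.891) at 30 nmol/min. With the 75th percentile of all probes as the scale these were 1.07 and 0.99, close to the shift of all tested probes, and relative to all tested probes ATF4 stayed between −0.53 and 0.04 in the 5 settings. The upstream ATF4 probe was not detected with vehicle.

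ATF3, an ATF4 target that represses many promoters, had scaled levels of −3.18 and −2.79 with vehicle, −2.78, −3.96, −2.72 and −2.52 at 30 nmol/min, then −3.10, −2.25, −2.42 and −2.74 at 300 nmol/min. The first vehicle array and the second array at 30 nmol/min were not above background, and the groups overlapped. At 300 nmol/min the difference from vehicle was 0.36 ± 0.41 (limma SE, adjusted p = 0.686), and the lower dose gave −0.01 ± 0.41 (adjusted p = 0.989). Without vehicle replicate 1 the value at 300 nmol/min was 0.16, without vehicle replicate 2 it was 0.55, and without replicate 2 of 300 nmol/min 0.23. At the lower dose it was −0.21 without vehicle replicate 1 and 0.18 without vehicle replicate 2. Between the doses the slide 3 arrays differed by 0.04.

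DDIT3, the pro-apoptotic target of ATF4, had scaled levels of −2.78 and −2.28 with vehicle, −3.96, −4.92, −3.31 and −3.99 at 30 nmol/min, then −3.48, −2.74, −2.36 and −2.74 at 300 nmol/min. All 4 arrays at 30 nmol/min lay below both vehicle arrays, while those at 300 nmol/min overlapped vehicle. The weakest signals detected on the vehicle arrays were −2.56 and −3.30. Every level at 30 nmol/min lay below both limits, so neither vehicle array could have detected levels as low as those. The values not above background were the first vehicle array, the first 2 arrays at 30 nmol/min and the first at 300 nmol/min. At 30 nmol/min the difference from vehicle was −1.52 ± 0.43 (limma SE, adjusted p = 0.300), a fold of 2.86 that did not pass the test. Relative to all tested probes the difference was −0.45 with normexp and quantile scaling and −1.85 on slides 1 and 2 alone. Of the arrays compared on those slides, only the second vehicle array was above background. At 300 nmol/min the difference from vehicle was −0.30 ± 0.43 (adjusted p = 0.759), with the sign turned to 0.87 by the 75th percentile of all probes. It was −0.55 without vehicle replicate 1, −0.050 without vehicle replicate 2, −0.46 without replicate 3 of 300 nmol/min and −0.085 without its replicate 1. On slide 3, where all 4 arrays measured it, DDIT3 was 2.14-fold higher at 300 nmol/min than at 30 nmol/min, a log2 difference of 1.1.

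XBP1, the unfolded protein response factor, had scaled levels of −2.30 and −1.58 with vehicle, −1.16, −0.79, −0.87 and −1.74 at 30 nmol/min, then −1.39, −1.34, −1.35 and −2.06 at 300 nmol/min. The first vehicle array was not above background, and at both doses 1 array, replicate 4, lay below the second vehicle array. The difference from vehicle was 0.40 ± 0.34 (limma SE, adjusted p = 0.579) at 300 nmol/min, while 30 nmol/min gave 0.80 ± 0.34 (adjusted p = 0.429). The overlapping probe gave 0.62 ± 0.42 (adjusted p = 0.488) at 300 nmol/min and 0.86 ± 0.42 (adjusted p = 0.470) at 30 nmol/min. That probe was above background on the first vehicle array (−2.09) and not on the second (−3.33), the reverse of the first probe. The vehicle arrays decided the size: for the first probe the difference at 300 nmol/min was 0.045 without vehicle replicate 1, which did not detect it, and 0.76 without vehicle replicate 2. At the lower dose these values were 0.44 and 1.16. Relative to the median of all tested probes the first probe was higher than in vehicle in the 5 settings, by 0.16 to 0.68 at 300 nmol/min and by 0.39 to 1.04 for the lower dose. The probes do not tell the spliced from the unspliced mRNA apart.

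**Figure D3:**
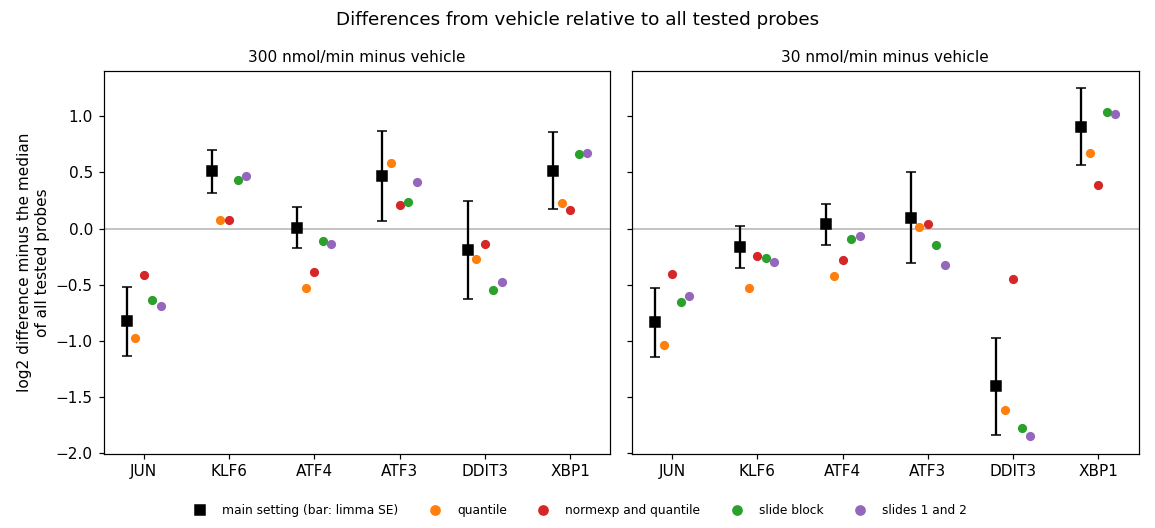
Difference from vehicle (log2, vertical axis) minus the median difference of all tested probes, for the 6 genes detected with vehicle, at 300 nmol/min (left) and 30 nmol/min (right). Squares are the values of the scale used in the text, with the limma SE as bars, and circles are the same difference under 4 other settings. JUN lies below 0 and XBP1 above 0 in both panels at these settings, KLF6 falls to 0.07 at 300 nmol/min with normexp and quantile scaling, and ATF4 lies close to 0 at the square and below it at the circles.

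The counts of members called were read against those of all tested probes. No member passed an adjusted p of 0.05 by limma at 300 nmol/min against vehicle, where 0.0112% of the 8935 tested probes did, a single REXO2 probe. At 30 nmol/min against vehicle 0 of 9 members and 0.0% of probes passed. These counts take 1 probe per gene. At an unadjusted p under 0.05, 1 of 9 genes was counted at 300 nmol/min (JUN, lower), where 13.8% of all tested probes were, 5.89% higher and 7.95% lower. The other tested KLF6 probe, not in that count, was higher with an unadjusted limma p of 0.00832. The lower dose gave 3 of 9 (JUN and DDIT3 lower, XBP1 higher), where 11.3% of probes were counted, 4.94% higher and 6.32% lower. In the count of groups that did not overlap, KLF6 lay above vehicle at 300 nmol/min, as 9.26% of probes did, and JUN below, as 16.3% did. The other tested KLF6 probe also lay above vehicle there, and so did the downstream JUN probe, which neither vehicle array detected. For 30 nmol/min 3 of 9 (KLF6, JUN and DDIT3) lay below vehicle without overlap, as 11.9% of probes did, and 0 of 9 above, against 7.63%. Both comparisons use the same vehicle arrays. EGR1, KLF6 and DDIT3 entered through the same senktide arrays, so their values against vehicle are not free of the choice.

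Between the doses the members are described and not tested. At an unadjusted p under 0.05, which is how they were chosen, KLF6 and DDIT3 were among 1.69% of tested probes that lay higher at 300 nmol/min, and EGR1 among 1.31% that lay lower, 3.0% together. These 3 genes differed over all arrays by −1.35 (EGR1), 0.68 (KLF6) and 1.22 (DDIT3). The nearest gene outside that choice, JUNB, differed by −0.89. The remaining 5 lay between −0.40 for XBP1 and 0.37 for ATF3. KLF6, by its first probe, alone of the 9 genes did not overlap between the doses over all arrays. Without overlap 1.56% of all tested probes lay higher at 300 nmol/min and 1.14% lower. By the KLF6 probe that shares bases with the first the doses did overlap. Its level was −1.96 on replicate 4 of 300 nmol/min and −1.92 on replicate 2 of 30 nmol/min. On slide 3 alone, KLF6, DDIT3, FOS and ATF4 lay higher and EGR1 and JUNB lower without overlap. There 21.9% of the 7038 probes detected on its 4 arrays were higher and 18.5% lower by the same count. No probe of the array passed an adjusted p of 0.05 between the doses (0.0%), and 1 probe, with no gene name, did with the replicate number as a block.

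**Figure D4:**
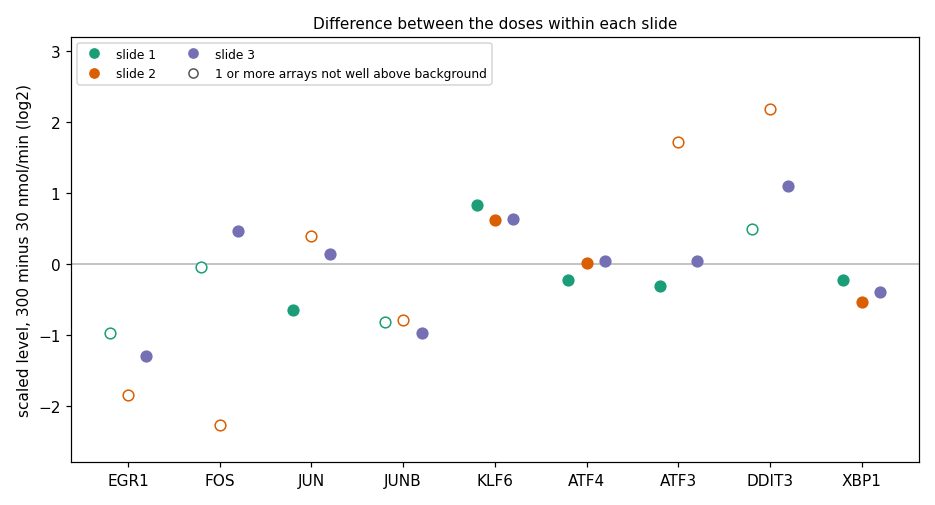
Scaled level at 300 nmol/min minus that at 30 nmol/min (log2, vertical axis) for each of 9 genes within slides 1, 2 (1 array per dose) and 3 (2 arrays per dose, means). Open circles rest on 1 or more arrays that were not well above background. KLF6 lies between 0.61 and 0.83 on all 3 slides, and EGR1 and JUNB lie below 0 on each, measured on slide 3 alone.

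Other genes of the same pathways were taken as lists, which were also drawn up with earlier results of these data known. None of their tested genes passed the threshold in either comparison with vehicle by limma. A gene undetected on both vehicle arrays has no measured direction, so higher and lower are counted below over the genes detected on at least 1 vehicle array, a restriction chosen after seeing the data. Over all 4279 tested probes of that kind, 58.8% were lower at 300 nmol/min (median difference −0.09) and 60.7% at 30 nmol/min (median −0.09). Among other immediate early genes 15 of 31 on the array were tested and 9 were detected with vehicle, 4 of them higher and 5 lower at 300 nmol/min (median −0.08). The lower dose had 3 higher and 6 lower (median −0.31). Over all 15, 8 were higher at 300 nmol/min and 7 at 30 nmol/min. FOSB was detected on 7 arrays and KLF4 on all 10, while EGR2, EGR4, FOSL1, IER3 and NR4A1 were at 0. MCL1, a short-lived survival protein, averaged −1.0 ± 0.18 at 300 nmol/min and −0.28 ± 0.37 with vehicle (SD, n = 4 and 2), a difference of −0.72 ± 0.23 (limma SE, adjusted p = 0.266). DUSP1, the phosphatase that ends MAP kinase signalling, was detected on all 8 senktide arrays and neither vehicle array, at least 1.38-fold higher at 30 nmol/min (adjusted p = 0.316). JUND was detected on 3 arrays at each dose and on neither vehicle array, with no bound to give.

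The kinases and factors that switch on immediate early genes gave 9 tested of 23 on the array. Of the 5 detected with vehicle, 2 were higher and 3 lower at each dose, and of all 9, 6 were higher at 300 nmol/min and 4 at 30 nmol/min. SRF and its ELK partners were detected on 0 arrays, whereas MRTFA (MKL1 in the files), the actin-regulated partner of SRF, was detected on all 10. Its differences were −1.09 ± 0.54 (adjusted p = 0.389) at 300 nmol/min and −0.93 ± 0.54 (adjusted p = 0.506) at 30 nmol/min. On slides 1 and 2 alone they were −0.48 at 300 nmol/min and −0.32 at 30 nmol/min. MAPK9 was detected on neither vehicle array and on 3 of 4 arrays at 30 nmol/min. With the undetected value included, its mean there lay 1.04-fold above the vehicle bound (limma adjusted p = 0.474). Its other tested probe differed from vehicle in the opposite direction at both doses.

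Of the genes of the integrated stress response downstream of and around ATF4, 28 were on the array, 19 were tested and 13 were detected with vehicle. Of these 13, 2 were higher and 11 lower (median −0.23) for 300 nmol/min, and 3 higher and 10 lower (median −0.17) for 30 nmol/min. Over all 19 the counts were 5 and 14 (300 nmol/min), then 6 and 13. Of the 28, 20 were detected on at least 1 array, with PPP1R15B, SLC7A5, AARS1, SARS1 and NARS1 on all 10. CHAC1, ASNS and PPP1R15A, targets of ATF4, were among those detected on 0 arrays. SHMT2, a mitochondrial serine enzyme, was detected on 1 of 2 vehicle arrays and differed by −0.88 ± 0.48 (limma SE, adjusted p = 0.419) at 300 nmol/min, but by −0.25 on slides 1 and 2 alone and −0.07 with quantile scaling. DDIT4, an inhibitor of mTOR signalling, was also detected on 1 of 2 vehicle arrays and differed by −0.83 ± 0.29 (adjusted p = 0.370) at 30 nmol/min. PSPH and TRIB3, also taken by the rule for named genes, were not detected with vehicle, and no fold is given.

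Of the unfolded protein response list 21 genes were on the array, 13 were tested and 8 were detected with vehicle. Of these 8, 5 were higher and 3 lower (median 0.18) for 300 nmol/min, and 6 higher and 2 lower (median 0.11) for 30 nmol/min. Over all 13 they were 9 and 4 (300 nmol/min), then 10 and 3. MANF, a secreted endoplasmic reticulum stress protein, averaged 0.35 ± 0.18 at 30 nmol/min and −0.08 ± 0.14 with vehicle (SD, n = 4 and 2), a difference of 0.43 ± 0.19 (limma SE, adjusted p = 0.431). CRELD2 and DNAJB11, chaperone-associated proteins of the same compartment, were detected on 3 arrays at 300 nmol/min, 2 at 30 nmol/min and neither vehicle array, with no bound to give. The sensors ERN1 and ATF6 were at 0 arrays.

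MYC partners and targets gave 9 tested genes of 17 on the array. Of the 5 detected with vehicle 3 were higher and 2 lower at both doses, and of all 9, 6 and 3. MAX and MYCN were at 0 arrays, and CDK4 was detected on 3 arrays of each dose and neither vehicle array. NOP56, a ribosome assembly protein, differed by −0.45 ± 0.18 (limma SE, adjusted p = 0.326) at 300 nmol/min and −0.36 ± 0.18 (adjusted p = 0.476) at 30 nmol/min. Of 12 other Krüppel-like factor genes 3 were tested, and KLF13 alone was detected with vehicle. It differed by −0.56 ± 0.27 (adjusted p = 0.377) at 300 nmol/min and −0.41 ± 0.27 (adjusted p = 0.543) at 30 nmol/min, the second being −0.15 on slides 1 and 2 alone. KLF7 was detected on 2 arrays of each dose and neither vehicle array. Each negative difference named for these lists turned positive, to between 0.09 and 0.72, when the 75th percentile of all probes set the scale, a change that shifts every tested probe alike (median difference of all 1.06 at 300 nmol/min and 0.95 at 30 nmol/min). With normexp and quantile scaling these differences lay between −0.55 and 0.03.

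The embryo label was checked against cell markers. KRT8, KRT18, GATA2, GATA3 and TFAP2C of the trophectoderm and SOX2 of the inner cell mass were detected on all 10 arrays, POU5F1 on 4, and CDX2, NANOG, GATA4, GATA6 and SOX17 on 0. Among leukocyte genes LYZ was detected on 10 arrays, PTPRC on 5 and ITGB2 on 4, and CD68, S100A8 and S100A9 on 0. Their summed level, in units of the scaling signal, was 0.229 to 0.262 with vehicle, 0.145 to 0.348 at 30 nmol/min and 0.177 to 0.418 at 300 nmol/min. It was 0.315 to 0.418 on slide 3 against 0.145 to 0.307 on slides 1 and 2. A probe not above background on an array counted as 0 in such sums, and the detection limit was lower on slide 3. The sums of slide 3 and of slides 1 and 2 are therefore not measured alike. The red cell gene HBA was detected on the 4 arrays of slide 3 alone, with a summed red cell level of 0.0689 to 0.122 there, while HBB and ALAS2 were at 0 arrays. EGR1, FOS and JUNB were also detected on slide 3 alone, and the part of leukocytes, red cells or the lower detection limit of slide 3 in that was not tested. CLU, of uterine epithelium, was detected on 7 arrays, MUC1 on 1, and OVGP1 and PAEP on 0. Of stroma, cumulus and oocyte genes COL1A2 was detected on 3 arrays, STAR on 2, INHBA on 1 and ZP3 on 2, with the others at 0. In whole embryos fewer cells of a type and less RNA per cell cannot be told apart.

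Over the 10 arrays the genes whose levels ran most like KLF6, among 2166 named genes detected on all of them, were HNRNPA2B1, an mRNA-binding protein (Pearson r = 0.84, Spearman rho = 0.73), COX1, the mitochondrial cytochrome oxidase subunit (r = 0.83, rho = 0.88), and TBCB, a tubulin chaperone (r = 0.81, rho = 0.84). Without the 2 arrays farthest from the KLF6 median r was 0.64, 0.97 and 0.65. For ATF4 they were RCC2, a mitotic regulator (r = 0.87, rho = 0.76), BTG1, an antiproliferative factor (r = 0.84, rho = 0.76), and SETD2, a histone methyltransferase (r = 0.84, rho = 0.94). Without the 2 farthest arrays r was 0.79, 0.67 and 0.79. These are the highest of many correlations over arrays that share slides, groups and one scaling step, and they are given as a description. With slide means removed, r was 0.83 to 0.90 for the KLF6 genes and 0.74 to 0.85 for the ATF4 genes.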

How the data were processed

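Spot intensity was deposited for 10 single-colour arrays as scanner output. Per the file headers the software was Agilent Feature Extraction 11.5.1.1, and per the submitters' processing notes it was 10.5.1.1. The processed intensity, per the file headers, had background subtracted and spatial trends removed on each array, with a surrogate for low values and no scaling across arrays. The deposited matrix of log2 values states neither scale nor centring. It equalled log2 processed intensity minus the 75th percentile of every probe on that array, centred on each probe's median, within 0.01 for 99.96% of values per array. Its vehicle columns had medians of 0.22 and 0.12, those of the lower dose 0.045, 0.066, −0.13 and −0.31, and those of the higher dose 0.16, −0.18, −0.28 and −0.23.

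Control and outlier spots were left out, 0 probe spots were saturated, and spots of a probe were averaged. Log2 values minus the 75th percentile of the 2491 probes detected on all arrays were fitted with limma 3.58.1 (R 4.3.3; lmFit, eBayes), with 1 coefficient per group. P-values were adjusted by Benjamini-Hochberg over 8935 tested probes (threshold 0.05). On simulated data 61% of 200 probes changed by 2 on the log2 scale were recovered for 300 nmol/min against vehicle. The number of arrays limits the precision. The tested probe with the highest mean stands for a gene. A group with a probe undetected on every array has only a bound, and a fold is given against it where it exceeds 1. That fold is a minimum only where every array of the other group detected the probe.

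Probes were named by accession (20595), symbol (10745), synonym (386) or another accession (708) from a RefSeq table (ARS-UCD2.0, names only), the files' own name was used for 2548, and 8671 are unnamed. The members, lists and tests were chosen with earlier results of these data known. Per list the 2 tested genes with the smallest p in either comparison with vehicle are named, and genes most like KLF6 and ATF4 are the 3 with the highest Pearson correlation. Genes given only by the number of arrays that detected them were chosen after their values were seen. Same-numbered arrays of the 2 doses share a slide, and their deviations from the group means correlated at 0.487 to 0.574. Differently numbered arrays of slide 3 correlated at 0.544 and 0.492, so these values cannot tell pairing by number from a shared slide. With vehicle the correlations of same-numbered arrays were −0.198 to 0.179. Deviations of only 2 vehicle arrays mirror each other, so they cannot show pairing. Alternatives were other scalings, background corrections and filters, slide or replicate number as a block, slides 1 and 2 alone, the deposited matrix, the mean over a gene's probes, and each array left out. Python 3.11.15, pandas 2.3.3, numpy 2.4.6 and matplotlib 3.10.9 were used.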

Additional observations from a re-analysis of the deposited data

Results flagged for a closer look

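In 18 groups of 4 arrays, 3 held an array whose gap to its nearest neighbour was large for the group's range, where chance gives about 1 in 20. FOS at 30 nmol/min, replicate 2, had a scaled level of −3.22, above the other 3 arrays of its group but not above background. JUN at 300 nmol/min, replicate 2, had −2.71, above the other 3. XBP1 at 300 nmol/min, replicate 4, had −2.06, below the other 3, which lay within −1.39 to −1.34.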

How the results depend on the processing

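No member probe passed the threshold under any setting. The number of probes past it at 300 nmol/min against vehicle was 1, 145 after quantile scaling, 108 with normexp and quantile scaling, and 0 with the 75th percentile or median of all probes, no filter, detection on all 10 arrays, the slide block, the replicate block, slides 1 and 2, or the matrix. Leaving out 1 array (a lone vehicle array is assumed to vary like the other groups) gave 0 to 50, with 32 without vehicle replicate 1 and 50 without vehicle replicate 2. At 30 nmol/min it was 0, 107 (quantile) and 35 (normexp and quantile), and 0 to 36 with 1 array left out, 34 without vehicle replicate 1 and 36 without vehicle replicate 2. Between the doses it was 0, and 1 with normexp and quantile scaling and 1 with the replicate block. Whether the replicate numbers pair any arrays beyond a shared slide cannot be told, and the replicate block gave 0 probes in both comparisons with vehicle.

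Over all tested probes the median difference from vehicle was −0.11. At 300 and 30 nmol/min it became 1.06 and 0.95 (75th percentile of all probes), 1.32 and 1.21 (median), 0.37 and 0.32 (quantile) and 0.09 and 0.08 (normexp and quantile). Most turned signs go with that shift. At 300 nmol/min, in the order 75th percentile, median and matrix, JUN became 0.23, 0.49 and 0.23, ATF4 1.07, 1.32 and 1.07, and DDIT3 0.87, 1.12 and 0.87. Averaged over all its tested probes JUN was −0.16 at 300 nmol/min and −0.30 at 30 nmol/min. ATF4 was 0.070 over all its probes and DDIT3 0.10 with quantile scaling. At 30 nmol/min KLF6 became 0.78, 1.04 and 0.78, JUN 0.11, 0.38 and 0.11, ATF3 1.04, 1.31 and 1.04, and ATF4 0.99, 1.25 and 0.99. Over all probes KLF6 was 0.0042 and ATF4 0.065. ATF3 was 0.33 (quantile), 0.12 (normexp and quantile) and −0.21 to 0.31 with 1 array left out (0.18 without vehicle replicate 2, 0.31 without replicate 2 of 30 nmol/min). The cause was not tested where no shift of all probes shows it. Normexp with quantile scaling also moved the dose differences of JUNB to −0.11 and DDIT3 to 0.32. Signal over background limits EGR1, FOS and JUNB on slides 1 and 2, and MYC on all slides.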
